A study of Mus musculus with 4 samples.

Results

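The 10 genes described here encode heat shock proteins of the cytosol and of mitochondria: Hspa1a, Hspa1b, Hspa8, Hsph1, Dnajb1, Hsp90aa1, Hsp90ab1, Hspb1, Hspd1 and Hspe1. They were picked by gene symbol, and 8 of the 10 were found among the 7000 genes of the deposited RNA-Seq table. Hspa1b and Dnajb1 were not listed. The libraries came from the livers of FVB/N mice, 2 on a diet supplemented with 0 ppm Se (mice 1 and 2) and 2 on a diet supplemented with 0.1 ppm Se (mice 4 and 5). Both diets were fed for 6 weeks from weaning, all mice were male, and rRNA was removed before sequencing. Each gene has 1 level in the table, the authors' mean over the 4 libraries in CPM (read counts scaled to a common library total), so the values below describe liver across both diets. No difference between the diets and no spread between mice is given, since the remaining columns hold the authors' own comparison, which was not used here. The depth behind each value is therefore unknown. The list follows the p-value of that comparison and ends before the last gene tested, and ranks and percentiles below hold among listed genes only. The reason a gene was not listed was not tested.

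Heat shock proteins are chaperones, which bind unfolded or partly folded proteins and let them fold, assemble or be degraded. The HSP70 proteins work in cycles of ATP binding and hydrolysis, in which J-domain proteins such as Dnajb1 deliver the client and nucleotide exchange factors such as Hsph1 release it, and the HSP90 proteins act later on kinases, receptors and other clients. Small heat shock proteins hold clients without ATP, and the chaperonin of Hspd1 and Hspe1 encloses proteins newly imported into mitochondria. Some of these genes are active in every cell, and others are induced by heat and other protein damage through the transcription factor Hsf1, which binds inverted repeats of GAA known as heat shock elements.

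The authors kept reads of 50 bases that aligned to a single mRNA with up to 2 mismatches, and near-identical members therefore share reads that were not counted for either. Hspa1a and Hspa1b, the stress-inducible HSP70 genes, lie on chromosome 17 of NCBIM37 (the assembly also named mm9), on the minus strand. Hspa1a spans chr17:35106144-35109069 and Hspa1b spans chr17:35093381-35096183, with 9960 bases between them, and the transcript of each is a single exon in GENCODE vM1. Their coding sequences differ by 8 substitutions over 1926 aligned bases, an identity of 99.6%: A156G, T795G, A921G, A1380G, A1416G, A1629G, C1881G and G1884A, with positions counted from the first base of the Hspa1a coding sequence and the Hspa1a base given first. The coding sequence of Hspa1b is longer, with 1929 bases, and its extra bases are left out of this list and of the identity. The longest stretch without a difference has 638 bases. The stretch of coding bases 1357 to 1416 is shown because it holds 2 of the 8 substitutions (A1380G and A1416G), with the matching bases of Hspa8 beside them. Aligned to it, Hspa8, the constitutive HSP70 gene, differs from Hspa1a at 17 of the bases. Capitals mark the differences between Hspa1a and Hspa1b in the first pair of lines and the differences from Hspa1a in the last line.
Hspa1a: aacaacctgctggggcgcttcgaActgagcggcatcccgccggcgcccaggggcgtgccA
Hspa1b: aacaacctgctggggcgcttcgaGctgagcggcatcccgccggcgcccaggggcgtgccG
Hspa8: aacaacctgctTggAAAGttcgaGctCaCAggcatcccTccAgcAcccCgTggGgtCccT

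Every window of 50 bases along each member mRNA was compared with the mRNAs of all other genes of GENCODE vM1, with up to 2 mismatches. In Hspa1a, 713 of 2877 windows (24.8%) matched no other gene. None of the 1877 windows within its coding sequence was among them, and all 713 lay after it, from base 2165 of the mRNA on. Hspa1b was alike, with 682 of 2754 windows (24.8%) found in no other gene, 46 of them within the coding sequence. The pair shared 2060 windows, and 547 windows of Hspa1a also matched Hspa1l, another HSP70 gene. Against this set of genes, reads of Hspa1a could be assigned only from the last stretch of its mRNA.

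The other HSP70 and HSP90 members were distinct at this read length. All 2345 windows of Hspa8 and all 3753 windows of Hsph1 matched no other gene, although the coding sequences of Hspa8 and Hspa1a are 74.7% identical. Their longest identical run has 22 bases, shorter than a read. Hsp90aa1 and Hsp90ab1, whose coding sequences are 76.6% identical with a longest shared run of 33 bases, were likewise unique in every window, 2803 and 2471 of them. The windows of Hspd1 (2374) and Hspe1 (725) were all unique as well. In Dnajb1, the other unlisted member, 99.1% of 2214 windows were unique.

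Hspb1 was the exception outside the HSP70 genes. Of its 854 windows, 446 also matched the predicted gene Gm9817, and 47.8% were unique. Gm9817 has no curated RefSeq transcript in the GRCm38.p6 gene table. When only genes with such a transcript were counted, all of the Hspb1 windows were unique and the share of Hspa1a was 28.4%. The authors aligned reads to RefSeq mRNAs for mm9 and not to GENCODE vM1, so the lower share of Hspb1 applies only if that set held Gm9817. The RefSeq set of that time was not examined, and the level of Hspb1 carries that uncertainty.

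**Figure D1:**
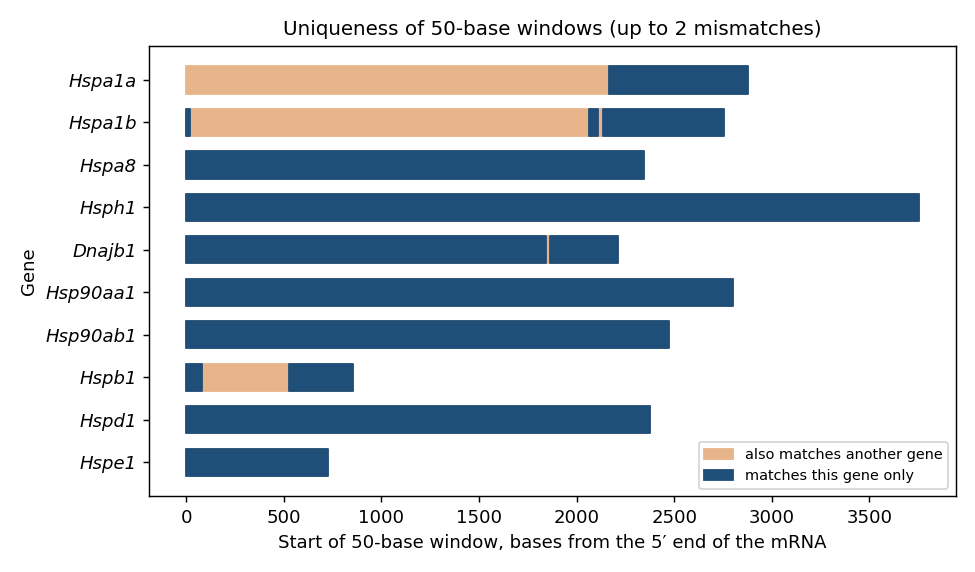
Each bar is the mRNA of 1 gene and is drawn to scale in bases from its 5′ end, with the starts of 50-base windows that match this gene only in blue and of those that also match another gene in orange. Blue is confined to the far end of Hspa1a, and Hspb1 is orange over 446 of its 854 windows, all shared with Gm9817. The comparison was with GENCODE vM1 and not with the authors' RefSeq set.

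Hspa8, the constitutive HSP70 that folds new proteins and takes part in clathrin uncoating, was the most abundant member. Its mean level was 2246 CPM, or 1068 CPM per kilobase of the listed mRNA of 2104 bases, and it ranked 40th of the 7000 listed genes per kilobase. Reads of Hspa8 made up 50.1% of the summed CPM of the 8 listed members, which was 4485 CPM. The gene lies at chr9:40609067-40613283 of NCBIM37 and its transcript has 9 exons. Hspa1a had 18.5 CPM, or 6.60 CPM per kilobase of the listed mRNA, against a median of 6.19 over the listed genes. Per kilobase of the listed mRNA, the level of Hspa8 was 162 times that of Hspa1a. Since reads could be assigned to only part of the Hspa1a mRNA, its level was also set against the uniquely alignable part, which assumes even coverage. It was then 26.6 CPM per kilobase, above the upper quartile of the listed genes (18.0) and still far below Hspa8. That quartile is of levels per listed kilobase, with no such adjustment. The unique share came from a GENCODE vM1 transcript of 2926 bases, against 2798 listed, so the value is approximate. The place of Hspa1a among the listed genes thus depends on how shared sequence is treated.

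Hsph1 (chr5:150416862-150438951, 18 exons), the HSP110 protein that exchanges the nucleotide of HSP70, had 79.3 CPM and 22.8 CPM per kilobase. It stood above 79.2% of the listed genes. Hspa8 exceeded it 46.8-fold per kilobase. Hsph1 was 3.46-fold above Hspa1a per kilobase of listed mRNA, but below the Hspa1a value per uniquely alignable kilobase, so the order of these neighbours depends on how shared sequence is treated. No level can be given for Dnajb1 (chr8:86132074-86135801, 3 exons).

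The HSP90 genes followed Hspa8 in the cytosol. Hsp90ab1 (chr17:45704724-45710220, 11 exons), the form known as constitutive, had 896 CPM and 357 CPM per kilobase. Hsp90aa1 (chr12:111928815-111940938, 11 exons), the form known as inducible, had 569.8 CPM and 199.9 CPM per kilobase. The ratio of the pair was 1.79 per kilobase, and they lay above 98.0% and 96.1% of the listed genes. Together with Hspa8 they held 82.8% of the summed CPM of the listed members.

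Hspb1 (chr5:136363789-136365433, 3 exons), the small heat shock protein also known as Hsp25, had the lowest level of the listed members. It had 1.94 CPM and 2.15 CPM per kilobase, near the authors' filter of 1 CPM. At 4.49 CPM per kilobase uniquely alignable against GENCODE vM1, or 2.15 against curated RefSeq genes, it remained below the median of the listed genes. The range from Hspb1 to Hspa8 covered 497-fold per kilobase.

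Hspd1 and Hspe1 encode the large and small subunits of the mitochondrial chaperonin, HSP60 and HSP10. Hspd1 had 552 CPM on a listed mRNA of 2332 bases, and Hspe1 had 121 CPM on one of 768 bases. The 4.54-fold gap in CPM was 1.495-fold per kilobase, with 236.5 CPM per kilobase for Hspd1 and 158 for Hspe1. The genes are neighbours on chromosome 1 with opposite strands, Hspd1 at chr1:55134679-55145087 and Hspe1 at chr1:55144976-55148151, and their annotated spans overlap by 112 bases. The kit keeps strand, and the strand setting of the count is not given in the sources used here.

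In order per kilobase, the listed members were Hspa8, Hsp90ab1, Hspd1, Hsp90aa1, Hspe1, Hsph1, Hspa1a and Hspb1. Adjacent levels from Hsp90ab1 to Hspe1 differed 1.51-fold, 1.18-fold and 1.26-fold. Without values for each mouse it cannot be said whether these neighbours differ beyond the spread between mice. The gap from Hspe1 to Hsph1 was 6.93-fold, and it parted the 5 members above the 90th percentile of listed genes (57.5 CPM per kilobase) from the other 3. The place of Hspe1 in this split depends on how length is treated. By CPM without length, Hspe1 lay above 89.3% of the listed genes and Hsph1 above 83.6%. Among genes of like length, an alternative added after seeing the data, Hspe1 lay above 84.2% and Hsph1 above 85.9%. The median of the 8 was 179 CPM per kilobase, against 6.19 for all listed genes. The members' mRNAs were somewhat shorter, with a median of 2419.5 bases against 2959.5. The GC content of the transcripts ran from 42.5% in Hsp90aa1 to 60.7% in Hspb1. Hspb1 and Hspa1a (59.2%), had the highest GC content of the listed members, and 50.3% was the median of the 6770 listed genes that could be matched to a transcript.

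**Figure D2:**
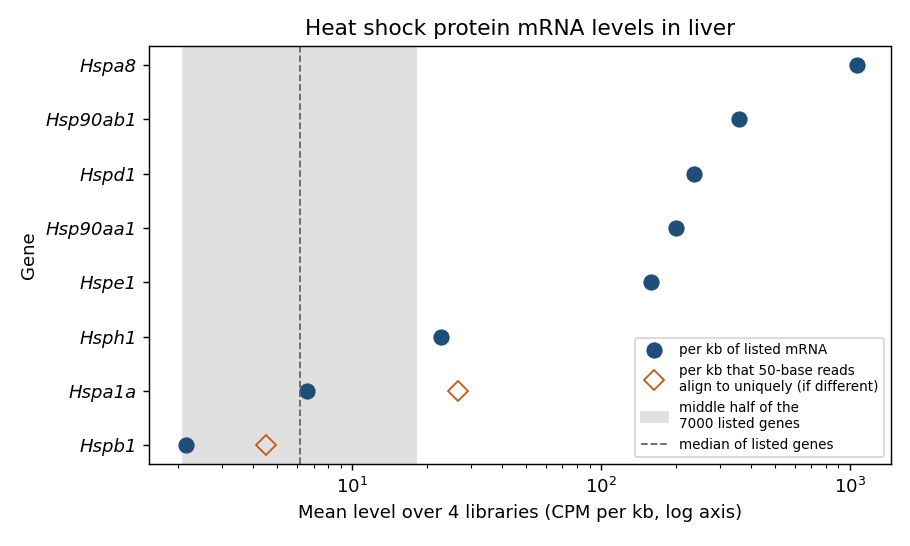
Points show the authors' mean level over 4 libraries for each listed gene, in CPM per kilobase of mRNA on a log axis, with no error bars because no values for single mice were used. Open diamonds give the level per uniquely alignable kilobase where it differs, and 5 genes lie at or above 158 CPM per kilobase while the points of Hspa1a and Hspb1 lie between the quartiles of listed genes, 2.09 and 18.0, and the diamond of Hspa1a (26.6) lies above them.

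Other genes of the chaperone system were taken from a chosen list of 78 in 8 roles, of which 50 were listed. It leaves out the endoplasmic reticulum chaperones Hspa5, Hyou1 and Hsp90b1, among others, and most J-domain genes. Their median was 19.4 CPM per kilobase, and 42 of the 50 lay above the median of all listed genes. None of these 50 reached the level per kilobase of the 5 most abundant heat shock genes. By CPM without length this did not hold for Hspe1 (121 CPM), which lay below several of the 50, such as Dnaja1 (435) and Hspb8 (252). It still held for Hspa8, Hsp90ab1, Hsp90aa1 and Hspd1. Of the HSP70 and HSP110 family, 4 of 9 were listed, Hspa4 at 36.0, Hspa4l at 9.86, Hspa14 at 9.36 and Hspa2 at 2.04 CPM per kilobase. Hspa9, the mitochondrial HSP70, was not listed, nor were Hspa12a, Hspa12b, Hspa13 and Hspa1l. Of the J-domain partners 8 of 12 were listed, with Dnaja1 (77.3) and Dnajb12 (27.0) highest and Dnajb5 (1.52) and Dnaja4 (0.943) lowest in CPM per kilobase.

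Of the nucleotide exchange factors and other HSP70 partners 8 of 11 were listed. The HSP70 partner St13 had 126 CPM per kilobase and Bag1 had 59.9, while Bag3 (9.33) and Hspbp1 (7.40) were lowest. Among the HSP90 family and partners 9 of 12 were listed. Ahsa1, which stimulates the HSP90 ATPase, had 82.3 CPM per kilobase and the immunophilin Fkbp4 had 78.8, with Ahsa2 at 8.41 and Tomm34 at 3.95. The mitochondrial HSP90 gene Trap1 was not listed. Hsp90aa1, the lower of the HSP90 members, was thus at a higher level than any of its listed partners.

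Of the 9 other genes that the chosen list groups as small heat shock proteins, only 3 were listed. Hspb8 had 139 CPM per kilobase, the highest of all 50 listed partners, whereas Hspb11 had 6.45 and Cryab 1.78. Per listed kilobase, Hspb1 (2.15) lay between Hspb11 and Cryab, and the other 6 genes have no level here. Of the mitochondrial genes for protein quality control, 3 of 5 were listed: the protease Lonp1 at 47.5, Clpb at 9.61 and Hscb at 2.77 CPM per kilobase. The cytosolic chaperonin and prefoldin had 12 of 15 genes listed, with Pfdn6 under its older symbol H2-Ke2. They ran from 9.83 (Vbp1) and 15.2 (Pfdn2) to 97.2 (Pfdn5) and 107 (Cct5), with a median of 51.4 CPM per kilobase, below both subunits of the mitochondrial chaperonin. Of the transcription factors and their binding protein, Hsf1 and Hsf5 were not listed, Hsf2 had 11.8, Hsf4 1.80 and Hsbp1 47.0 CPM per kilobase.

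**Figure D3:**
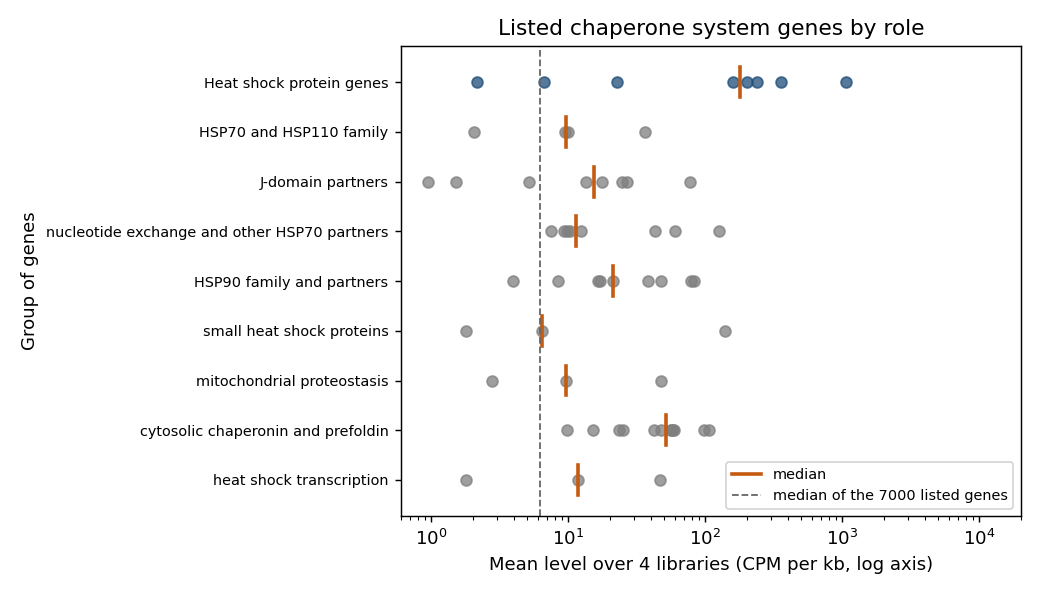
Each point is 1 listed gene, placed by its mean level over 4 libraries in CPM per kilobase on a log axis, and orange bars are medians of a role. The heat shock protein genes have a median of 179 CPM per kilobase, and the medians of the other roles lie between 6.45 and 51.4.

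RefSeq promoter windows of GRCm38.p6, from 250 bases before to 50 bases from the start of transcription on, were given for 7 of the 10 members. Hspa8, Hsp90aa1 and Hsp90ab1 had no entry. The windows were searched on both strands for 2 inverted units of the heat shock element, GAANNTTC or TTCNNGAA, each of which reads the same on both strands and may overlap the other. At least 1 match was found in 6 of the 7 members, while 17.0% of 27025 genes have a match in any of their windows. Dnajb1 had none in either of its windows. In 4 of the 7 (Hsph1, Hspb1, Hspd1 and Hspe1) there were 2 or more matches that do not overlap, against 1.71% of all genes. These counts of members are not counts of separate sequences, since Hspa1a and Hspa1b have nearly the same promoter and Hspd1 and Hspe1 share the bases of their matches, as described below. A match describes the letters of the window and not a bound site.

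The promoters of Hspa1a and Hspa1b differ at 4 of 300 bases and both hold a match that starts 104 bases upstream of transcription. Its surroundings have the same letters in both genes. The stretches of 3 members are printed because they hold matches upstream of transcription, with matches in capitals, each in the direction of its gene. They lie on GRCm38.p6 at chr17:34972227-34972286 (minus strand, Hspa1a), chr5:149636337-149636395 (minus strand, Hsph1) and chr5:135887776-135887835 (plus strand, Hspb1).
Hspa1a: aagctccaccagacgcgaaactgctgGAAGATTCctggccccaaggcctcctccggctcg
Hsph1: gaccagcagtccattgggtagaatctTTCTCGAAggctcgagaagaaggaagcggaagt
Hspb1: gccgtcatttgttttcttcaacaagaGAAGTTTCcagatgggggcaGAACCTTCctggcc

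The match of Hsph1 lies 33 bases upstream of its first listed start and 54 upstream of the second, and its other 2 matches, which overlap each other, lie after the start. Those of Hspb1 lie 117 and 97 bases upstream. Hspd1 and Hspe1 share the densest group. The second listed start of Hspd1 lies 216 bases from the start of Hspe1 on the other strand, and the windows of these starts have 285 bases in common. Within them, 3 overlapping matches fill 18 bases, beginning 89 bases upstream of Hspe1 at chr1:55088053-55088082 (plus strand, GRCm38.p6) in the stretch below. The same bases, read on the opposite strand, are the matches in the window of the second start of Hspd1, so they are 1 observation and not 2. The window of the first listed start of Hspd1 had no match, and these bases lie downstream of that start.
Hspe1: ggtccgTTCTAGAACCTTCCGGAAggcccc

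**Figure D4:**
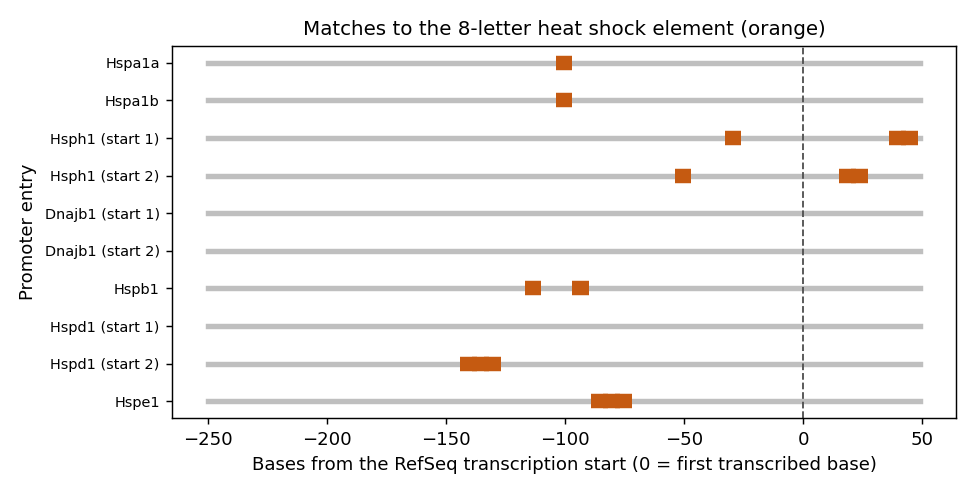
Grey lines are the promoter windows of 7 genes by distance from the transcription start in bases, and orange blocks are matches to the 8-letter element. The matches of Hspd1 (start 2) and Hspe1 are the same bases, and both windows of Dnajb1 are empty.

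The tissue label was checked on marker genes. Of 8 hepatocyte genes 5 were listed, with Apoa1 ranked 6th and Fgb 8th of all listed genes per kilobase, and their summed level was 46174 CPM. Listed genes of Kupffer cells (all 5 searched, 1 of them, Emr1, also under its newer symbol Adgre1) summed to 428 CPM, of sinusoidal endothelium (3 of 4) to 244 CPM and of stellate cells (4 of 4) to 350 CPM, and 1 of 3 lymphocyte genes was listed (Ptprc) at 21.9 CPM. The hepatocyte genes Alb, Ttr and Cps1 and the 3 skeletal muscle genes searched were not listed, which gives no level for them. In whole liver the share of each cell type in a member's level was not tested.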

How the data were processed

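Liver RNA of 4 mice was depleted of rRNA and sequenced in single-end reads of 50 bases. Per the paper's methods, Bowtie aligned the reads to the RefSeq mRNA set for mm9, in which the longest isoform stands for each gene, unique alignments with up to 2 mismatches were counted, and the authors ran edgeR on genes above 1 CPM in 3 or more samples. The version of either tool is not given in the sources used here. Deposited log2 values of the mean CPM over the 4 libraries and the deposited mRNA length were used. The other columns hold the authors' log2 fold change between the diets, its p-value and its adjusted p-value, and were not used, except that the order of rows was checked. The list follows the p-value and stops before the last gene tested, so expressed genes can be missing from it, and a rank holds among listed genes only. There were 0 columns for single mice, so the planned edgeR test was not run.

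The log2 values were turned into CPM and divided by length in kilobases. Unique windows were found with 16-base seeds over 22611 genes of GENCODE vM1 (NCBIM37), using for each member the transcript with the longest coding sequence that was nearest to the listed length. Coding sequences were aligned globally with Biopython 1.88. Window, motif and identity searches were tested on simulated sequences. Python 3.11.15, numpy 2.4.6 and matplotlib 3.10.9 were used. Named genes are all members and, in each role, the 2 highest and the 2 lowest listed partners per kilobase. Members and lists were chosen with earlier results of these data known. Partners and markers absent under their own symbol were looked up by older symbols in the RefSeq gene table of GRCm38.p6, and members by their symbol alone. Markers were used only for the check of tissue. Alternatives were CPM without length, a minimum of 10 CPM, length per unique base, exact matches, a longer motif and 2 separate matches. Further alternatives were chosen after seeing the data: genes of like length, genes with a curated RefSeq transcript, the length of the GENCODE vM1 transcript, and coding sequence identity, also over the shorter sequence.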

Additional observations from a re-analysis of the deposited data

How the results depend on the processing

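Of 81 values recomputed under an alternative, 73 stayed within 1.5 times the value reported and 8 did not, all of single genes. Many of the 73 could hardly move. Members unique in every window keep the same level and share by construction, and a high percentile cannot rise 1.5-fold. A fall of Hspe1 from 95.3 to 84.2 among genes of like length, below Hsph1, also counted as within. The count of members with separate matches, 4 against 6, lay at the limit itself. The median percentile of the 8 listed members per kilobase was 95.7, and 93.6 by CPM without length. It was 91.4 among genes of like length, an alternative added after seeing the data. Among genes of at least 10 CPM the median was 94.2 over 7 members, since Hspb1 falls below that minimum. The percentile of Hspa1a, 51.8, was 29.0 among genes of at least 10 CPM, and that of Hspb1, 25.6, was 6.70 by CPM and 7.77 among genes of like length. The level of Hspa1a rose from 6.60 to 26.6 CPM per kilobase, or 23.2 with curated RefSeq genes (also added after seeing the data), when set against its unique part. That of Hspb1 went from 2.15 to 4.49, and stayed at 2.15 with curated genes. With exact matches the unique share of Hspa1b was 37.7%. A longer motif of 3 alternating units, with 1 mismatch, was found in 6 of 7 members against 8.11% of genes. The planned protein identity was not run because no protein sequences were used, and coding sequences, chosen after seeing the files, were compared in its place. Tests of the diets, other normalizations and the omission of a mouse were not run. No paired analysis was possible because there are no values for single mice.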
